A study of Homo sapiens with 6 samples.

Results

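The 48 genes described here encode proteins of mitochondrial fusion, fission, transport and cristae, of mitophagy (the removal of mitochondria by autophagy), and of autophagy itself. They were taken from a list of symbols, of which 47 matched an Ensembl gene of the count tables directly and PHB matched under its current symbol PHB1. The count tables list 62348 identifiers in all. RNA was sequenced from HEK-293T, a human embryonic kidney line carrying the SV40 large T antigen. The 3 libraries labelled WT had received a guide RNA with no target, and the 3 labelled C17orf80 knockout had received a guide against C17orf80, a gene whose protein associates with mitochondrial DNA. Per the labels, the knockout line was made with CRISPR/Cas9, and puromycin at 3 μg/ml served to pick monoclonal cells. How many clones were used is not given in the sources used here, and what sets 1 clone apart from another cannot be told apart from what the guide did. Whether replicates were grown as separate cultures is not stated either, so each p-value weighs a difference against the spread among libraries, and that spread may be technical.

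Mitochondria form a network that mitofusins join at the outer membrane and OPA1 at the inner membrane, and that the dynamin DNM1L divides after adaptor proteins recruit it. Damaged parts of the network are marked by the kinase PINK1 or by receptors in the outer membrane, such as BNIP3 and FUNDC1. After marking by PINK1, cargo receptors tie the organelle to lipid-bound proteins of the ATG8 family on a growing autophagosome. That membrane is started by the ULK kinase complex, shaped by the BECN1 lipid kinase complex and WIPI proteins, and decorated with ATG8 proteins by a conjugation machinery that includes ATG5, ATG7, ATG12 and ATG16L1.

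Levels below are CPM (gene counts scaled to library size with TMM factors), listed for replicates 1, 2 and 3 in that order. After ±, a level carries its SD over n = 3 libraries and a log2 fold change, knockout-labelled over WT, its standard error. A gene passed the test at an adjusted p under 0.05 by edgeR's quasi-likelihood test over all 17452 genes with enough counts. No transcript lengths were used, so levels are compared between libraries and never between genes.

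C17orf80 itself was present in each knockout-labelled library, at 56.4, 42.4 and 42.0 CPM against 25.8, 26.8 and 29.2 CPM in WT (log2 fold change 0.78 ± 0.17, adjusted p = 0.0232). The call ended on leaving out WT replicate 1, 2 or 3 or knockout-labelled replicate 3. The RNA was thus not lost, which says nothing of the protein, and "knockout" is used below only as the label of those libraries. Each library held between 14982340 and 16278091 gene counts. Knockout-labelled replicate 1 stood apart: 11.9% of its gene counts lay on mitochondrial genes, against 4.53% to 5.00% in the other 5 libraries, and reads in no annotated feature made up 15.9% against 8.75% to 10.8%. Of the 7 marker genes known from this line each was detected, with a summed level of 630 to 663 CPM in WT and 495 to 596 CPM in the knockout-labelled libraries. Of 12 markers of blood, endothelial, liver and muscle cells, PTPRC, CD68, CD3E, CDH5 and HBG1 had no counts and the sum stayed between 0.546 and 1.18 CPM.

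Over all 6 libraries the genes of mitochondrial dynamics and autophagy held few changes that passed the test. The autophagy kinase gene ULK2 and the mitochondrial transport gene TRAK1 rose, and the fusion gene MFN2 and the autophagosome genes WIPI1 and WIPI2 fell. Of the 48 genes 43 had enough counts to be tested, 2 were called higher, 3 were called lower and 38 did not pass. Of all tested genes 15.1% were called in either direction, 8.64% higher and 6.5% lower, so 5 of 43 is no larger a share than that of genes at large. In bulk RNA, fewer cells of a kind and less RNA per cell cannot be told apart.

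The direction of the values was less even than the calls. The log2 fold change was below 0 in 30 of 43 members and in 49.7% of all tested genes. Its median was -0.20 over the members and 0.0055 over all genes. In 19 members each knockout-labelled library lay below each WT library, in 10 each lay above, and in 14 the groups overlapped. Groups without overlap were also common among all tested genes, at 47.6% (23.5% higher, 24.1% lower). At an unadjusted p under 0.05, 6 members were higher and 11 lower, beside 33.2% of all tested genes in either direction (18.2% higher, 15% lower). DESeq2 gave the same 2 members higher and 6 lower among 45 with an adjusted p, beside 9.53% and 7.46% of genes, and limma-voom gave 2 higher and 4 lower of 43, beside 8.04% and 7.08%. Besides the 3 members called lower by edgeR, DESeq2 called PINK1, FUNDC1 and MAP1LC3B, and limma-voom called MAP1LC3B.

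**Figure D1:**
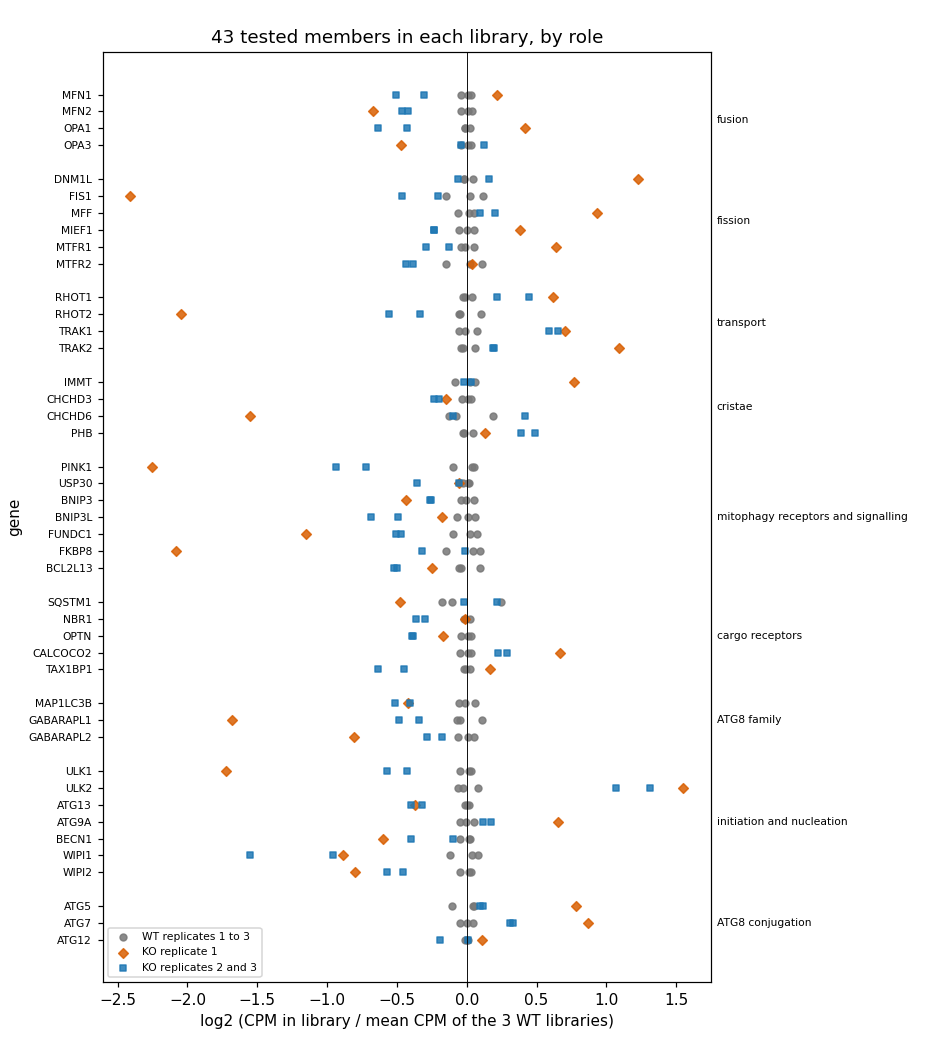
Each row is a tested gene and each point a library, placed by the log2 ratio of its CPM to the mean of the 3 WT libraries (horizontal axis), with WT as grey circles, knockout-labelled (KO) replicate 1 as orange diamonds and KO replicates 2 and 3 as blue squares. ULK2 lies to the right in all 3 KO libraries, the mitophagy genes lie mostly to the left, and KO replicate 1 is the farthest point in many rows, on either side.

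ULK2 showed the largest rise and was the only member called whichever single library was left out. It encodes a serine/threonine kinase that, like its relative ULK1, starts autophagosome formation. ULK2 (ENSG00000083290, chromosome 17, positions 19770830 to 19867936 of GRCh38 in RefSeq) stood at 20.6, 19.1 and 18.7 CPM in WT and at 56.9, 40.8 and 48.3 CPM in the knockout-labelled libraries. All 3 knockout-labelled values lay more than 20 CPM above the highest WT value. This is a 2.50-fold rise, with a log2 fold change of 1.32 ± 0.17 (adjusted p = 0.00377), and of 1.20 without knockout-labelled replicate 1. No protein-coding gene overlaps its span in RefSeq.

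WIPI1 fell by the most among the called members. WIPI proteins bind phosphatidylinositol 3-phosphate on the forming autophagosome, and WIPI2 recruits ATG16L1 there. WIPI1 (ENSG00000070540, chromosome 17, positions 68421281 to 68457496) was at 8.39, 7.54 and 8.64 CPM in WT and at 4.44, 2.79 and 4.21 CPM in the knockout-labelled libraries, with no overlap. The level was 2.15-fold lower (log2 fold change -1.10 ± 0.24, adjusted p = 0.0258). Its span overlaps those of ARSG and PRKAR1A, and the strand setting of the counts was not given, so the reads of these genes cannot be told apart where they overlap. PRKAR1A had 163, 176 and 173 CPM in WT and 315, 214 and 241 CPM in the knockout-labelled libraries (log2 fold change 0.59, adjusted p = 0.0591), and ARSG had a log2 fold change of 0.80 (adjusted p = 0.0748), both opposite in direction to WIPI1.

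WIPI2 fell as well. It was at 127, 121 and 128 CPM in WT and at 72.0, 91.5 and 84.3 CPM in the knockout-labelled libraries (ENSG00000157954, chromosome 7, positions 5190233 to 5233855). The highest knockout-labelled value lay well below the lowest WT value, a 1.52-fold lower mean (log2 fold change -0.60 ± 0.14, adjusted p = 0.0310). Without a WT library the calls of both WIPI genes ended: the adjusted p was 0.113, 0.0907 and 0.117 for WIPI1 and 0.142, 0.123 and 0.145 for WIPI2 on leaving out WT replicates 1, 2 and 3. It was 0.0683 and 0.0907 on leaving out knockout-labelled replicate 3.

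To show the regulatory sequence of the called members with the largest rise and fall, and of the single member with a CACGTG, the 250 bases before the first listed start of ULK2, WIPI1 and BNIP3 are printed 5′ to 3′ on the gene's strand (RefSeq, GRCh38.p14, minus strand in each case). They lie at chr17:19867937-19868186, chr17:68457497-68457746 and chr10:131981924-131982173. Capitals mark matches on either strand to CACGTG (the E-box, which TFEB-type factors bind), ACGTG (the core of the hypoxia response element, contained in CACGTG on both strands) and GGGCGG (the GC box).
ULK2: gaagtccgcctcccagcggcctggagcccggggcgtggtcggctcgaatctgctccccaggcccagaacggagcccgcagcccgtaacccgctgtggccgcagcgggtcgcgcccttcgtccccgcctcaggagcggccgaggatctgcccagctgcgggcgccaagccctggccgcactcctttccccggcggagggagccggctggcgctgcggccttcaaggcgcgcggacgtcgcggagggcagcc
WIPI1: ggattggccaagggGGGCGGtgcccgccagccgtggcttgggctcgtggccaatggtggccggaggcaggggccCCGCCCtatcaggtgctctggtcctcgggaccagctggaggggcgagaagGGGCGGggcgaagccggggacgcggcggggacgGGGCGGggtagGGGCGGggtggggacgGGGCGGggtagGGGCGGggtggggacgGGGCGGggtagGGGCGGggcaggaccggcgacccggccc
BNIP3: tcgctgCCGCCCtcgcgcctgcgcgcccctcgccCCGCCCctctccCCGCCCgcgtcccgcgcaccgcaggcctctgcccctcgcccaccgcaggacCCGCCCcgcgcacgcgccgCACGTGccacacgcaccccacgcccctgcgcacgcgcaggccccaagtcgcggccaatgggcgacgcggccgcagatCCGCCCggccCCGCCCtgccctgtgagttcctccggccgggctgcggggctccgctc

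The WIPI1 stretch holds 9 GC boxes in a GC content of 79.6%, most of them in a short repeat next to the start, and the BNIP3 stretch holds 6. The ULK2 stretch, at a GC content of 76%, holds none of the 3 motifs. Promoter windows of 300 bases were found for 42 members. CACGTG was in those of 1 member (BNIP3), against 8.78% of the 27305 genes with a window. ACGTG was in those of 14 members (33.3%) and of 24.9% of all genes, and GGGCGG in those of 31 members (73.8%) and of 48.3% of all genes. Of the 5 called members, TRAK1 and WIPI2 held ACGTG and WIPI1 and WIPI2 held GGGCGG. A gene can have windows at several starts and a match in any was counted, so the shares also depend on the number of windows. The 27305 genes are more than the 17452 tested for expression, and no share over expressed genes was computed. The motif shares are therefore not shown to be particular to the members. The ACGTG of TRAK1 (chr3:42086950-42087199) and of WIPI2 (chr7:5214019-5214268) lay in windows inside the gene spans. For WIPI2 the 250 bases before the first listed start held none. A match describes letters only, and no match says nothing of a factor.

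**Figure D2:**
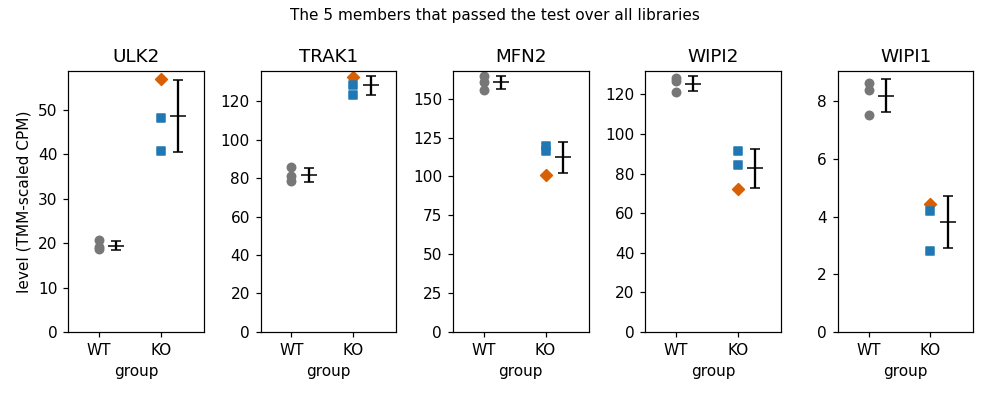
Levels in TMM-scaled CPM (vertical axis, from 0) of the 5 members that passed the test, with WT libraries as grey circles, KO replicate 1 as an orange diamond, KO replicates 2 and 3 as blue squares, and the mean ± SD of each group as a bar with caps. In none of the 5 panels do the groups overlap, and ULK2 shows the largest distance relative to its WT level, 2.50-fold.

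Among the fusion genes MFN2 fell, and the other 3 did not pass. MFN2, an outer-membrane mitofusin that also tethers mitochondria to the endoplasmic reticulum, was at 165, 161 and 156 CPM in WT and at 101, 116 and 119.9 CPM in the knockout-labelled libraries (ENSG00000116688, chromosome 1, positions 11980444 to 12013508). Each knockout-labelled value lay below each WT value, 1.43-fold lower in the mean (log2 fold change -0.51 ± 0.13, adjusted p = 0.0402). The call ended on leaving out WT replicate 1, 2 or 3 (adjusted p = 0.178, 0.162 and 0.154) and knockout-labelled replicate 2 or 3 (0.0599 and 0.0893). Its relative MFN1 was at 80.8, 84.9 and 83.3 CPM in WT and at 96.4, 58.5 and 67.2 CPM in the knockout-labelled libraries.

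In MFN1, as in OPA1, knockout-labelled replicate 1 lay above all WT libraries and replicates 2 and 3 lay below them. OPA1, the inner-membrane fusion dynamin, was at 176, 172 and 171 CPM in WT and at 231, 111 and 128 CPM in the knockout-labelled libraries (log2 fold change -0.14 ± 0.27, adjusted p = 0.743). Without replicate 1 both genes passed, with log2 fold changes of -0.39 for MFN1 and -0.52 for OPA1. OPA3, a mitochondrial membrane protein linked to optic atrophy, overlapped between the groups and was at -0.11 ± 0.18.

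None of the 6 tested fission genes passed over all libraries, and replicate 1 held the extreme value in most. DNM1L, the dynamin that constricts mitochondria, was at 129, 124 and 124 CPM in WT and at 293, 120.1 and 139.7 CPM in the knockout-labelled libraries (log2 fold change 0.56 ± 0.33, adjusted p = 0.271, and 0.059 without replicate 1). FIS1, an outer-membrane protein of fission sites, was at 38.4, 40.7 and 33.9 CPM in WT and at 7.10, 32.6 and 27.3 CPM in the knockout-labelled libraries (-0.75 ± 0.48, adjusted p = 0.305). For FIS1 the groups did not overlap, but replicate 1 alone was far below the rest, and the value without it was -0.32.

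The DNM1L adaptor MFF was at 59.6, 62.8 and 64.5 CPM in WT and at 119, 66.6 and 71.7 CPM in the knockout-labelled libraries, without overlap (log2 fold change 0.46 ± 0.23, adjusted p = 0.213, and 0.16 without replicate 1). MIEF1, another adaptor, was at 163, 168 and 156 CPM in WT and at 211, 138 and 138 CPM, with means of 162 ± 6.06 and 162 ± 42.1 CPM. Its replicate 1 lay above all WT libraries and replicates 2 and 3 below them. The regulators of fission MTFR1 and MTFR2 had log2 fold changes of 0.13 ± 0.25 and -0.25 ± 0.18. Without replicate 1, FIS1, MIEF1, MTFR1 and MTFR2 were called lower, at -0.32, -0.23, -0.20 and -0.40.

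Of the 4 genes that link mitochondria to motor proteins, TRAK1 rose and 3 did not pass. TRAK1, an adaptor between the outer-membrane GTPases RHOT1 and RHOT2 and microtubule motors, was at 81.0, 85.8 and 78.5 CPM in WT and at 133, 129 and 123 CPM in the knockout-labelled libraries (ENSG00000182606, chromosome 3, positions 42013093 to 42225890). The 3 knockout-labelled libraries were close to each other here, and 1.57-fold above WT in the mean (log2 fold change 0.65 ± 0.12, adjusted p = 0.0161, and 0.63 without replicate 1). Leaving out WT replicates 1, 2 and 3 gave adjusted p of 0.112, 0.0893 and 0.117, and leaving out knockout-labelled replicate 3 gave 0.0566.

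The related adaptor TRAK2 was at 27.8, 28.03 and 29.8 CPM in WT and at 60.6, 32.4 and 32.6 CPM in the knockout-labelled libraries. Its replicates 2 and 3 lay only slightly above WT (log2 fold change 0.55 ± 0.26 with all libraries, adjusted p = 0.185, and 0.20 without replicate 1). RHOT1 and RHOT2 stood on opposite sides of WT. RHOT1 was at 47.3, 47.8 and 49.3 CPM in WT and at 73.7, 55.8 and 65.6 CPM in the knockout-labelled libraries (0.43 ± 0.15, adjusted p = 0.0908). RHOT2 was at 191, 172 and 171 CPM in WT and at 43.1, 141 and 121 CPM (-0.81 ± 0.39, adjusted p = 0.192). Neither overlapped between groups, and without replicate 1 both passed, RHOT1 at 0.34 and RHOT2 at -0.43.

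The 4 cristae genes gave no call over all libraries. PHB, a ring-forming inner-membrane scaffold protein, was at 125, 119.7 and 120.0 CPM in WT and at 134, 171 and 159.5 CPM in the knockout-labelled libraries, each above WT (log2 fold change 0.35 ± 0.14, adjusted p = 0.137). Here replicate 1 was the closest to WT, and without it PHB was called higher at 0.45. IMMT, the core of the MICOS complex that forms cristae junctions, was at 192, 178 and 196 CPM in WT and at 321, 186 and 193 CPM (0.31 ± 0.23, and 0.015 without replicate 1), so that replicates 2 and 3 were within the WT range. The MICOS subunit genes CHCHD3 and CHCHD6 were at -0.19 ± 0.12 and -0.20 ± 0.43, and CHCHD6 at 7.17 CPM in replicate 1 against 28.1 and 19.7 CPM in replicates 2 and 3. CHCHD3 was called lower without replicate 1, at -0.21.

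All 7 genes of mitophagy signalling and its receptors had log2 fold changes below 0, and none passed edgeR over all libraries. In 6 of the 7 the knockout-labelled libraries all lay below WT, as in 24.1% of all tested genes. The 19 mitophagy genes among the further pathway genes taken up below did not share this side. Of those 11 were above 0 and 8 below, with a median of 0.048. PINK1, the kinase that phosphorylates ubiquitin on damaged mitochondria, was at 15.4, 15.3 and 13.8 CPM in WT and at 3.11, 8.98 and 7.75 CPM in the knockout-labelled libraries. Each knockout-labelled library was below each WT library, at -1.16 ± 0.36 on the log2 scale (adjusted p = 0.0702 by edgeR, 0.0174 by DESeq2). Without replicate 1, its lowest library, PINK1 was called lower by edgeR at -0.82. An antisense gene, PINK1-AS, shares part of its span, and without strand their reads cannot be separated.

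The outer-membrane receptors of hypoxia-linked mitophagy showed the same side. FUNDC1 was at 35.2, 32.4 and 36.6 CPM in WT and at 15.7, 24.4 and 25.1 CPM in the knockout-labelled libraries (log2 fold change -0.68 ± 0.21, adjusted p = 0.0667 by edgeR, 0.0411 by DESeq2). BNIP3L was at 99.0, 90.6 and 95.5 CPM in WT and at 84.1, 59.0 and 67.6 CPM (-0.44 ± 0.16, adjusted p = 0.115). BNIP3, the member with the E-box printed above, was at 148, 144 and 154 CPM in WT and at 109.8, 124 and 124 CPM (-0.32 ± 0.13, adjusted p = 0.128). In all 3 genes the groups were apart, and each was called lower without replicate 1, at -0.48 for FUNDC1, -0.58 for BNIP3L and -0.25 for BNIP3.

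BCL2L13, a receptor related to the BCL2 family, was at 103, 113 and 102 CPM in WT and at 89.1, 74.8 and 74.1 CPM in the knockout-labelled libraries (log2 fold change -0.42 ± 0.14, adjusted p = 0.0850), and was called lower at -0.50 without replicate 1. FKBP8, a receptor of the immunophilin family, was at 319, 269.5 and 309 CPM in WT and at 70.7, 297 and 239 CPM (-0.56 ± 0.45). Its low mean rests on replicate 1, without which it did not pass and was at -0.15. USP30, the deubiquitinase that opposes mitophagy, was at -0.15 ± 0.14 and at -0.19 without replicate 1, with no call either way.

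None of the 5 cargo receptor genes passed over all libraries, and CALCOCO2 was the single one with a higher mean. CALCOCO2, a receptor for ubiquitin-marked cargo, was at 77.1, 80.2 and 81.5 CPM in WT and at 126, 92.8 and 97.3 CPM in the knockout-labelled libraries, without overlap (log2 fold change 0.40 ± 0.16, adjusted p = 0.124, and called higher at 0.26 without replicate 1). TAX1BP1, from the same receptor family, was at 131, 132 and 134 CPM in WT and at 148, 85.1 and 96.8 CPM (-0.26 ± 0.22). Here replicate 1 was above WT and the others below, and without it TAX1BP1 was called lower at -0.53. OPTN and NBR1 had log2 fold changes of -0.31 ± 0.14 and -0.22 ± 0.14, and were called lower without replicate 1 at -0.38 and -0.32.

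SQSTM1, the cargo receptor also called p62, was counted at only 60, 49 and 50 reads in WT and at 32, 63 and 54 reads in the knockout-labelled libraries. Its log2 fold change was -0.06 ± 0.28, and 0.11 without replicate 1. The span of SQSTM1 overlaps MGAT4B and MRNIP, and reads that fit more than 1 gene were set aside as ambiguous, at 9.74% to 12.5% of counted reads. Whether such reads account for the low count was not tested.

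The 3 tested ATG8 family genes were lower in every knockout-labelled library than in every WT library, as were 24.1% of all tested genes, and none passed edgeR. These small ubiquitin-like proteins are attached to lipid in the autophagosome membrane. MAP1LC3B was at 117, 108 and 111 CPM in WT and at 83.6, 78.5 and 84.5 CPM in the knockout-labelled libraries (log2 fold change -0.45 ± 0.12, adjusted p = 0.0508 by edgeR, 0.0334 by DESeq2 and 0.0493 by limma-voom). It was the most even of the 3 among the knockout-labelled libraries.

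GABARAPL1 was at 44.7, 50.7 and 45.3 CPM in WT and at 14.6, 36.9 and 33.5 CPM (-0.72 ± 0.32, adjusted p = 0.163). GABARAPL2 was at 77.0, 83.3 and 80.9 CPM in WT and at 45.9, 66.1 and 71.0 CPM (-0.40 ± 0.19, adjusted p = 0.182). Replicate 1 was the lowest library in both, and without it the 3 genes were called lower, MAP1LC3B at -0.45, GABARAPL1 at -0.41 and GABARAPL2 at -0.22. GABARAPL1-AS1 lies in the span of GABARAPL1.

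GABARAP and MAP1LC3A had too few counts to test. GABARAP had 0, 7 and 2 reads in WT and 0, 3 and 0 in the knockout-labelled libraries, and MAP1LC3A had 3, 1 and 0 against 9, 1 and 0. MIEF2 and MTFP1, an adaptor and a regulator of fission, were likewise not tested, with at most 9 and 11 reads in a library. ATG16L1, which places the conjugation machinery on the membrane, had 0 reads in each of the 6 libraries, which allows up to 3 reads per library by counting error. GABARAP overlaps PHF23 and ATG16L1 overlaps 2 small RNA genes, while MAP1LC3A, MIEF2 and MTFP1 overlap no RefSeq gene. What brought these counts near 0 was not tested, and they are not read as absence of the RNA.

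In the initiation group 3 of 7 genes were called, ULK2 higher and WIPI1 and WIPI2 lower, as described above, beside 15.1% of all tested genes. ULK1 went the other way from ULK2, at 163, 165 and 156 CPM in WT and at 48.9, 120.1 and 109 CPM in the knockout-labelled libraries. Its groups did not overlap, but it did not pass over all libraries (log2 fold change -0.80 ± 0.31, adjusted p = 0.121) and was called lower at -0.49 without replicate 1. ATG13, a partner of the ULK kinases in their complex, was at 84.99, 85.9 and 84.4 CPM in WT and at 66.0, 68.0 and 64.4 CPM, a narrow spread in both groups (-0.36 ± 0.12, adjusted p = 0.0845, and called lower at -0.35 without replicate 1).

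ATG9A, a lipid scramblase carried on vesicles to the growing membrane, had a higher mean (log2 fold change 0.33 ± 0.18, adjusted p = 0.227). BECN1, a subunit of the lipid kinase complex, had a lower one (-0.35 ± 0.16, adjusted p = 0.184). In both genes the groups did not overlap, and neither passed without replicate 1, at 0.15 and -0.23. The spans of ATG13 and BECN1 overlap HARBI1 and CNTD1. Of the 48 members 30 overlap some other RefSeq gene, 9 of them a protein-coding one.

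Of the genes of ATG8 conjugation none passed over all libraries. ATG7, the activating enzyme, was at 29.0, 28.03 and 29.8 CPM in WT and at 52.9, 36.5 and 35.9 CPM in the knockout-labelled libraries, each above WT (log2 fold change 0.53 ± 0.19, adjusted p = 0.0982, and called higher at 0.33 without replicate 1). ATG5 was at 34.6, 34.8 and 31.1 CPM in WT and at 57.7, 35.8 and 36.4 CPM (0.37 ± 0.21, and 0.12 without replicate 1). For ATG5 replicates 2 and 3 were within 2 CPM of the highest WT library. ATG12, which is joined to ATG5, had a mean of 57.2 ± 0.418 CPM in WT, close to the 56.4 ± 5.91 CPM of the knockout-labelled libraries (-0.02 ± 0.14).

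**Figure D3:**
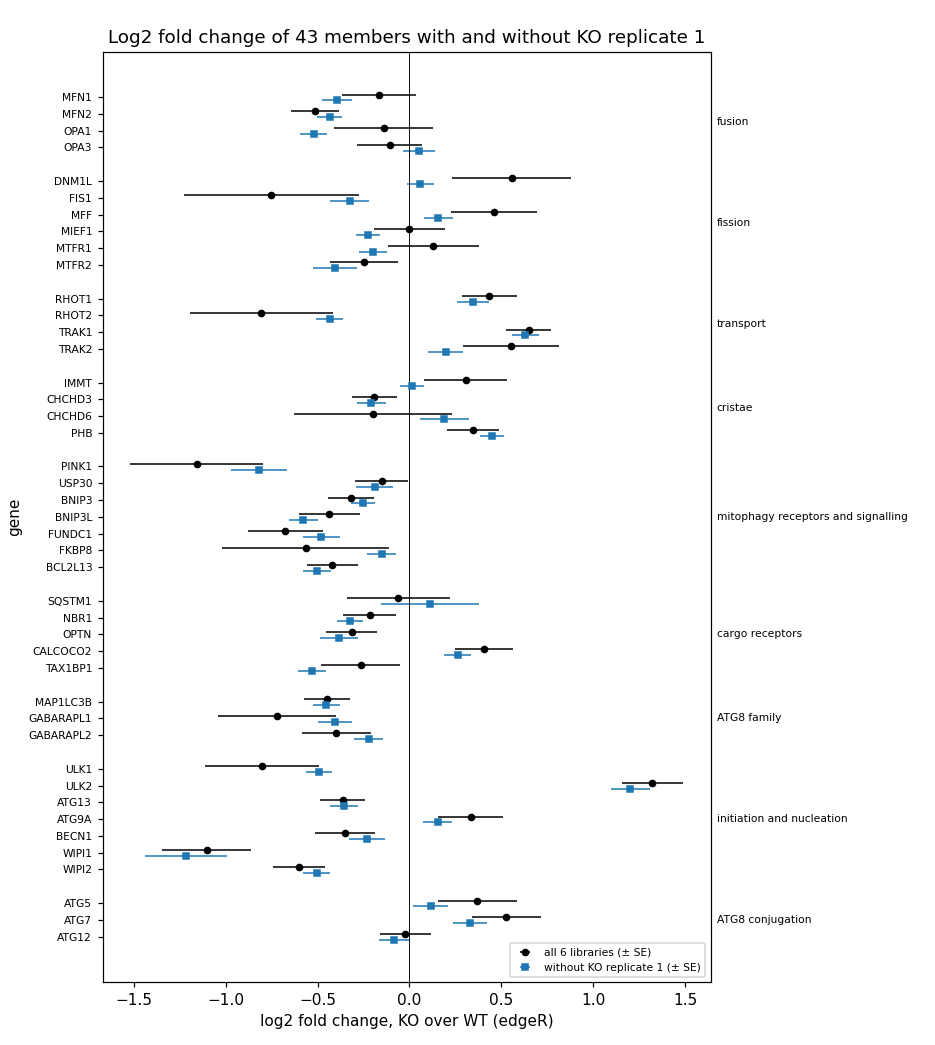
Log2 fold change of KO over WT with its standard error (horizontal axis) for 43 members by role, over all 6 libraries (black circles) and without KO replicate 1 (blue squares). ULK2, TRAK1, WIPI1, WIPI2 and MFN2 keep their side in both, the standard errors are smaller without KO replicate 1, and OPA3, MTFR1 and CHCHD6 are among the genes that cross 0.

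Leaving out knockout-labelled replicate 1 changed the count of calls more than anything else. Without it 6 members were called higher and 24 lower of 43, against 44% of all 18133 genes tested in that fit (22.3% higher, 21.7% lower). With an absolute log2 fold change of at least 0.5 as well, 9 members were called, beside 26.3% of all genes. Groups without overlap were seen in 36 of 43 members without replicate 1, 10 above and 26 below WT, and in 62.3% of all genes (31.1% and 31.2%). Since members are mostly well expressed, genes at a mean of at least 10 CPM are given beside them, a level chosen after the data were seen. Of 41 members at that level 6 were called higher and 23 lower without replicate 1, against 27% and 28.4% of the 10217 genes at that level (55.4% together). Over all libraries 2 and 2 of those 41 members were called, against 8.56% and 7.23% of genes at that level (15.8% together). All 5 members called over all libraries were called in the same direction without replicate 1.

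The 24 genes called lower without replicate 1 were MFN1, MFN2, OPA1, FIS1, MIEF1, MTFR1, MTFR2, RHOT2, CHCHD3, PINK1, BNIP3, BNIP3L, FUNDC1, BCL2L13, NBR1, OPTN, TAX1BP1, MAP1LC3B, GABARAPL1, GABARAPL2, ULK1, ATG13, WIPI1 and WIPI2. The 6 called higher were RHOT1, TRAK1, PHB, CALCOCO2, ULK2 and ATG7. By role, 3 of 4 fusion genes, 4 of 6 fission genes, 5 of 7 mitophagy genes and 3 of 3 tested ATG8 genes were called lower and none higher. The calls went both ways in initiation (1 higher and 4 lower of 7), cargo receptors (1 and 3 of 5), cristae (1 and 1 of 4) and transport (2 and 1 of 4), and conjugation had 1 higher and 0 lower of 3. Beside these stand the 22.3% higher and 21.7% lower of all genes in that fit. With replicate 1 left out, that fit rests on 2 knockout-labelled libraries, and the difference between clones named above applies to it as well.

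Replicate 1 differed from replicates 2 and 3 in both directions among the members. It was over 2-fold below their mean in 7 tested members, and the values relative to that mean were -2.06 on the log2 scale for FIS1, -1.92 for FKBP8, -1.72 for CHCHD6, -1.60 for RHOT2, -1.40 for PINK1, -1.26 for GABARAPL1 and -1.22 for ULK1. It was over 2-fold above the mean in 1 member, DNM1L, at 1.17. OPA1 was next at 0.95.

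The difference went with the length of the gene on the chromosome. Across the 43 members Spearman's rho between it and the RefSeq span was 0.49, as a description of points that share the same 3 libraries. The 14 members with the shortest spans, 5.61 to 19.2 kb, had a median difference of -0.47, and the 14 with the longest, 64.9 to 304 kb, one of 0.45. Replicate 1 was the higher in 4 of the 14 shortest and in 13 of the 14 longest. CHCHD6 was an exception, low in replicate 1 with a long span. The log2 fold change over all libraries also went with span, at a rho of 0.50, against 0.25 without replicate 1. The part of span, RNA quality or the mitochondrial share in these values was not tested. No rho was computed over all tested genes, so the trend is not shown to be particular to the members.

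**Figure D4:**
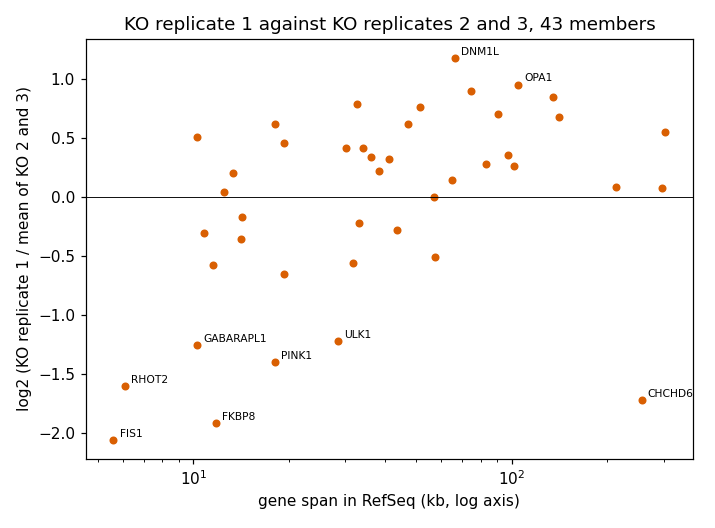
The log2 ratio of KO replicate 1 to the mean of KO replicates 2 and 3 (vertical axis) against the RefSeq span of the gene in kb (horizontal log axis), 1 point per tested member, with members beyond 0.9 named. Short genes such as FIS1 and RHOT2 lie low and long genes such as OPA1 lie high, with CHCHD6 apart.

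Ratios of related genes within a library need no scaling between libraries. Of 10 pairs set for this, 8 had at least 10 counts of both genes in each library. The log2 ratio of ULK1 to ULK2 counts was 2.98, 3.11 and 3.06 in WT and -0.22, 1.56 and 1.17 in the knockout-labelled libraries, the widest difference of the 8 pairs. In replicate 1 the ULK2 count thus exceeded that of ULK1. The mean difference of this ratio was -2.22, and -1.69 without replicate 1. RHOT1 to RHOT2 was at -2.01, -1.85 and -1.80 in WT and at 0.77, -1.34 and -0.88, each above WT, with a mean difference of 1.40, and of 0.78 without replicate 1.

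The ratio of WIPI1 to WIPI2 was -3.92, -4.01 and -3.89 in WT and -4.02, -5.03 and -4.33 in the knockout-labelled libraries, so replicate 1 was next to the WT range and the others below it. GABARAPL1 to GABARAPL2 lay below WT and MTFR1 to MTFR2 above WT in each knockout-labelled library, with mean differences of -0.41 and 0.33, and of -0.18 and 0.20 without replicate 1. The ratios of MFN1 to MFN2, TRAK1 to TRAK2 and BNIP3 to BNIP3L overlapped between the groups. For MFN1 to MFN2, replicates 2 and 3 differed from WT by 0.038 in the mean. These ratios were not tested, and the level of a ratio depends on the lengths of its genes. Spans differ within pairs, with 28529 bases for ULK1 against 97107 for ULK2, and 6092 for RHOT2 against 83226 for RHOT1. The part of span in these ratios was not tested either.

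**Figure D5:**
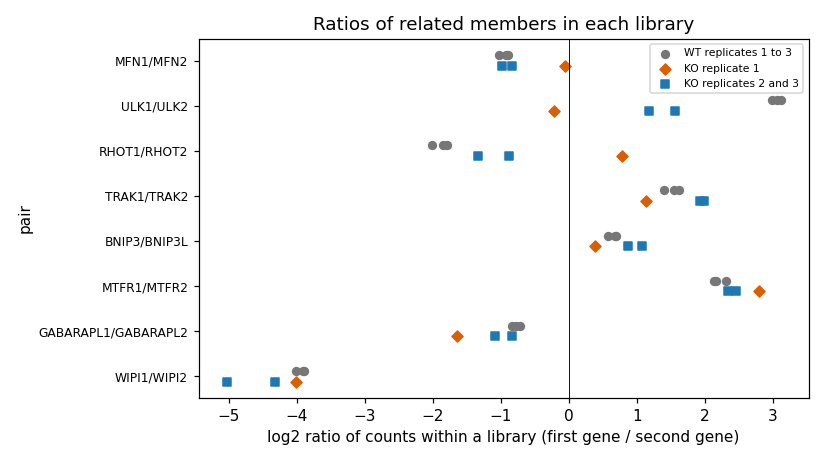
Log2 ratio of the counts of 2 related genes within a library (horizontal axis) for 8 pairs, with WT as grey circles, KO replicate 1 as orange diamonds and KO replicates 2 and 3 as blue squares. ULK1/ULK2 falls from about 3.05 in the WT mean to values between -0.22 and 1.56, and the KO libraries of RHOT1/RHOT2 all lie to the right of WT.

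Further genes of the same pathways were taken from a list of 85, of which 84 matched the tables and 81 were tested. Of these 3 rose and 6 fell, and 72 did not pass, which at 9 of 81 is again no larger a share than the 15.1% of all tested genes. Their median log2 fold change was 0.013, and 40 of 81 were below 0. ARMCX3, an outer-membrane protein of mitochondrial transport like TRAK1, rose from 27.9 ± 5.18 CPM in WT to 51.2 ± 1.54 CPM (log2 fold change 0.88 ± 0.17, adjusted p = 0.0165). PPTC7, a mitochondrial phosphatase that limits BNIP3 and BNIP3L, rose from 52.3 ± 1.91 to 87.4 ± 12.1 CPM (0.74 ± 0.15, adjusted p = 0.0191). ATG3, the conjugating enzyme that acts after ATG7, rose from 40.9, 41.3 and 40.8 CPM to 94.6, 59.1 and 60.8 CPM, highest in replicate 1 (0.80 ± 0.21, adjusted p = 0.0416).

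Lower were USP35, a deubiquitinase of the same kind as USP30, from 23.4 ± 2.03 to 12.2 ± 3.44 CPM (log2 fold change -0.94 ± 0.23, adjusted p = 0.0375), and MUL1, an outer-membrane ubiquitin ligase that acts on mitofusins, from 35.9 ± 1.56 to 19.3 ± 5.11 CPM (-0.89 ± 0.22, adjusted p = 0.0347). MICOS10, a core MICOS subunit, fell from 5.36 ± 0.931 to 2.80 ± 0.487 CPM (-0.94 ± 0.26, adjusted p = 0.0496). NIPSNAP1, a mitochondrial protein that draws in autophagy receptors, fell from 158 ± 1.71 to 91.8 ± 22.1 CPM (-0.78 ± 0.20, adjusted p = 0.0386). MTFR1L, a relative of MTFR1, fell by 0.69 on the log2 scale, and DNAJC11, which associates with MICOS, by 0.50. ATG3 was the only one called of 33 tested genes of the autophagy core. None of the 81 genes was called without WT replicate 1, WT replicate 2 or knockout-labelled replicate 3, and 1, ARMCX3, was called without WT replicate 3. Without knockout-labelled replicate 1, 21 were called higher and 21 lower, beside 22.3% and 21.7% of all genes in that fit. Without knockout-labelled replicate 2, 8 were called higher and 6 lower, beside 1636 higher and 1070 lower of all 18107 genes in that fit.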

How the data were processed

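RNA purified on poly-T beads was sequenced from 3 WT and 3 knockout-labelled HEK-293T libraries. The deposited tables hold whole-number counts per gene, with no scaling. According to the submitters' processing notes, the tools included HISAT2 2.2.1 and HTSeq 0.12.4 on GRCh38; strand and counting options are not given in the sources used here. Summary lines (8.75% to 15.9% of reads in no feature, 9.74% to 12.5% ambiguous) entered neither the library totals nor any test. Deposited mitochondrial coverage was not used, since all members are nuclear genes.

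The main test was edgeR 4.0.16 in R 4.3.3 (TMM, filterByExpr, quasi-likelihood, no covariate), adjusted by Benjamini-Hochberg over 17452 genes. Tried besides were DESeq2 1.42.0, limma-voom (limma 3.58.1), 2 other scalings, 2 other filters, omission of mitochondrial genes, the replicate number as a block, and omission of single libraries. The code was tested on simulated counts. Symbols came from an Ensembl name table and RefSeq (GRCh38.p14), which also gave spans and promoters.

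Members, lists and motifs were chosen with earlier results of these data known, and the GC box was added after the data were seen. Described in full were called members, members called without knockout-labelled replicate 1 at an absolute log2 fold change of at least 0.5, and the largest change of each role. Of the further pathway genes, up to 8 called genes with the largest change were to be named, and DNAJC11 was added after its values were seen. A chi-square comparison of counts found no pair of libraries within sampling noise.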

Additional observations from a re-analysis of the deposited data

How the results depend on the processing

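Of 602 values of single members under 14 alternatives, 534 kept direction and side of the threshold. In the same direction, 32 passed newly (24 of them without knockout-labelled replicate 1) and 22 no longer passed, and 14 reversed. MTFR1 without knockout-labelled replicate 1 is counted as reversed, though it also passed newly there, at -0.20. The median log2 fold change of the members stayed between -0.26 and -0.18.

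Members called lower were 6 by DESeq2 and 5 without a low-count filter, and further pathway genes called higher were 9 in both. DESeq2 called 17% of genes with an adjusted p, 9.53% higher and 7.46% lower. Without the filter 1888 genes were called higher and 1556 lower of 35856. With each library left out, members called higher ranged from 1 to 6 and lower from 0 to 24, further pathway genes from 0 to 21 in each direction, and all genes from 401 to 4048 higher and from 243 to 3927 lower. Without WT replicate 1, 2 or 3, or knockout-labelled replicate 3, ULK2 was the 1 member called. Such a fit has 2 libraries in a group.

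The replicate block left 1 member higher (ULK2) and 0 lower, 0 further pathway genes in either direction, and 610 genes higher and 359 lower. Deviations of same-numbered libraries from their group means had correlations of -0.094, -0.043 and -0.0019. Deviations within a group cancel out, and knockout-labelled replicate 1 stood apart. Such correlations cannot decide whether the replicate numbers pair libraries.

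Reversed values were all of members not called over all libraries, and most came from leaving out 1 library. The log2 fold change then ranged from -0.52 to 0.058 for OPA1, from -0.23 to 0.051 for OPA3, from -0.23 to 0.11 for MIEF1, from -0.20 to 0.30 for MTFR1, from -0.64 to 0.19 for CHCHD6, from -0.22 to 0.11 for SQSTM1 and from -0.083 to 0.061 for ATG12, with knockout-labelled replicate 1 or 2 left out at both ends of each range. MIEF1, at -0.00 in the main value, was at 0.013 with RLE scaling, 0.0068 with upper-quartile scaling, 0.016 with the 2 CPM filter and 0.00068 without mitochondrial genes. The cause was not tested. With upstream bases only, the members' promoter counts were the same, and the shares of all genes were 7.73% for CACGTG, 21.7% for ACGTG and 46.2% for GGGCGG. SQSTM1 and the 5 untested members had few counts, which limits the precision of their values.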
